A study of Mus musculus and Mus musculus x Mus spretus with 14 samples.

Results

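The Dlk1-Dio3 miRNA cluster is a run of imprinted miRNA genes on mouse chromosome 12. Its 46 miRNAs were chosen by name, without star forms, from an array of 1271 rows, of which 576 name a mouse miRNA. All 46 were found, on 57 rows: 9 miRNAs had 2 rows, 1 for each arm, and mmu-miR-409 had 3 rows, 2 of them for its 5p arm.

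MicroRNAs of 13 mouse skin cell lines were measured on Exiqon arrays with Cy3-labelled RNA, on 14 arrays in all, since line A5 had 2, which were averaged. The series title concerns miR-203 and miR-205 in cutaneous squamous cell carcinoma. The malignant spindle lines (n = 5) were A5, D3, CARB, CARC and H11. A5 and D3 came from a hybrid of M. spretus and CBA treated repeatedly with DMBA, a carcinogen. CARB and CARC came from NIH/Swiss mice given DMBA and TPA, a tumour promoter, and H11 was cloned from a single cell of SN161, itself from a lymph node metastasis in an F1 mouse of 129 and NIH. The malignant squamous lines (n = 3) were B9, E4 and PDVC57. B9 shares its tumour with A5 and D3, and E4 shares its tumour and its cloning history with H11. PDVC57 came from a tumour grown in C57 mice from PDV cells, keratinocytes transformed with DMBA in culture. The non-malignant squamous lines (n = 5) were 3 of immortalized keratinocytes, C5N, C50 and NK, and 2 of papillomas, MSCP1 and P6. C5N was cloned from MCA3D cells of a BALB/c mouse, and NK came from a p53 null mouse. By their origin text, MSCP1 and P6 came from hybrids of Mus spretus and CBA given DMBA and TPA. The organism label instead gives P6 as Mus musculus alone, and it gives NK as a cross of Mus musculus and Mus spretus. The labels name no treatment or allele common to every line of a group.

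The miRNAs of this locus are made from the maternally inherited chromosome, from long noncoding transcripts that begin at Meg3 and run through Rian and Mirg. A first group lies opposite the paternally expressed gene Rtl1, whose transcript mmu-miR-127 and its neighbours are known to cut, and the larger group runs from mmu-miR-379 to mmu-miR-410. In the adult mouse these miRNAs are best known from brain, and they are also abundant in the embryo and placenta. Single members have described roles, among them mmu-miR-134, which restrains the growth of dendritic spines in neurons.

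The mature miRNAs printed here are those on which the results turn, from RefSeq with the coordinates of build GRCm38.p6. Capitals mark the seed, bases 2 to 8 from the 5′ end, which guides target choice. The first 5 were above background in at least 3 lines, the next 4 were highest in CARB, and the last 3 belong to the best known members, which stood at background.

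mmu-miR-337-3p, chr12:109585850-109585871, + strand: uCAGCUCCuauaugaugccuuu
mmu-miR-329-3p, chr12:109713541-109713562, + strand: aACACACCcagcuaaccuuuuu
mmu-miR-494-3p, chr12:109715367-109715388, + strand: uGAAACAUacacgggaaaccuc
mmu-miR-667-3p, chr12:109720061-109720083, + strand: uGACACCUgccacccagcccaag
mmu-miR-668-3p, chr12:109734774-109734797, + strand: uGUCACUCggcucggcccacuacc
mmu-miR-299a-3p, chr12:109710676-109710697, + strand: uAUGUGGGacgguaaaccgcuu
mmu-miR-495-3p, chr12:109718795-109718816, + strand: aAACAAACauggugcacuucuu
mmu-miR-369-3p, chr12:109743466-109743486, + strand: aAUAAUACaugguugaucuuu
mmu-miR-410-3p, chr12:109743764-109743784, + strand: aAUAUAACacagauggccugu
mmu-miR-127-3p, chr12:109592888-109592909, + strand: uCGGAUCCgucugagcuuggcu
mmu-miR-379-5p, chr12:109709065-109709085, + strand: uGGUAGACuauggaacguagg
mmu-miR-411-5p, chr12:109710190-109710210, + strand: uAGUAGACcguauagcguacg

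A row that names no arm was matched to the arm which the older naming of that miRNA stood for. Of the 56 names on the 57 rows, 53 matched a RefSeq mature sequence, and mmu-miR-485, mmu-miR-487b and mmu-miR-376c are named only. The 53 sequences had 53 different seeds, so none of these members shared a seed with another. The hairpins of 44 members matched, all on the + strand of chr12:109563692-109743795, a span of 180.104 kb from Mir770 to Mir410.

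A row was taken as above background on a line where it stood more than 1 log2 unit over the median of the 8 negative control rows of that array, which lay between 6.50 and 6.67. Of those control rows, 1 was itself bright, at 7.74 to 11.3, and is not reflected in the median. C5N, A5 and MSCP1 had arrays unlike the others. C5N had a median correlation of 0.332 with the other lines over mouse rows, A5 of 0.735, and MSCP1 had 37 mouse rows above background against 119 to 185 on the other lines. The epithelial marker list (7 rows, miR-203, miR-205 and the miR-200 family) averaged 6.64 to 6.91 in spindle lines, 7.33 to 8.97 in malignant squamous lines and 7.27 to 10.1 in non-malignant squamous lines. The mean of the list was lower in each of the 5 spindle lines than in any squamous line. Single rows did not all follow it. The row of miR-203 stood at 6.80 to 7.10 in malignant squamous and at 6.80 to 7.17 in spindle lines. That of miR-205 was lower in E4 (6.69) than in A5 (7.39), and that of miR-429 was higher in CARB (7.40) than in B9 (7.32). The blood cell row miR-142-3p stood at 9.89 in D3, 11.1 in H11 and 10.0 in E4 and at most at 7.15 in the other lines. Its other arm, miR-142-5p, stood at 8.91 in D3, 9.86 in H11 and 9.33 in E4 and at most at 7.13 elsewhere. Of the other blood rows, miR-486 was above background in C5N alone, at 7.97, and miR-223 and miR-451 in none.

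By the margin of 1 log2 unit, most rows of the cluster were at background. Of the 57 rows, 14 (24.6%) were above background in at least 1 line, against 56.1% of all 576 mouse rows, and 6 (10.5%) were so in at least 3 lines, against 32.6% of mouse rows. Counted as miRNAs, 12 of 46 were above background in at least 1 line, 6 of 46 in at least 3 lines and 34 of 46 in none. The share depends on the margin. At 0.5 log2 units 23 rows (40.4%) were above background in at least 1 line, beside 72.2% of mouse rows. Above the second brightest control row there were 47 (82.5%), beside 93.1%, and above every control row 5 (8.77%), beside 22.6%. Whether most rows count as above background thus turns with the rule, while the members' share was under that of all mouse rows by each of these rules. These shares compare rows of different probes and carry no test. In RNA from a whole culture, fewer cells with a miRNA and less of it per cell cannot be told apart.

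**Figure D1:**
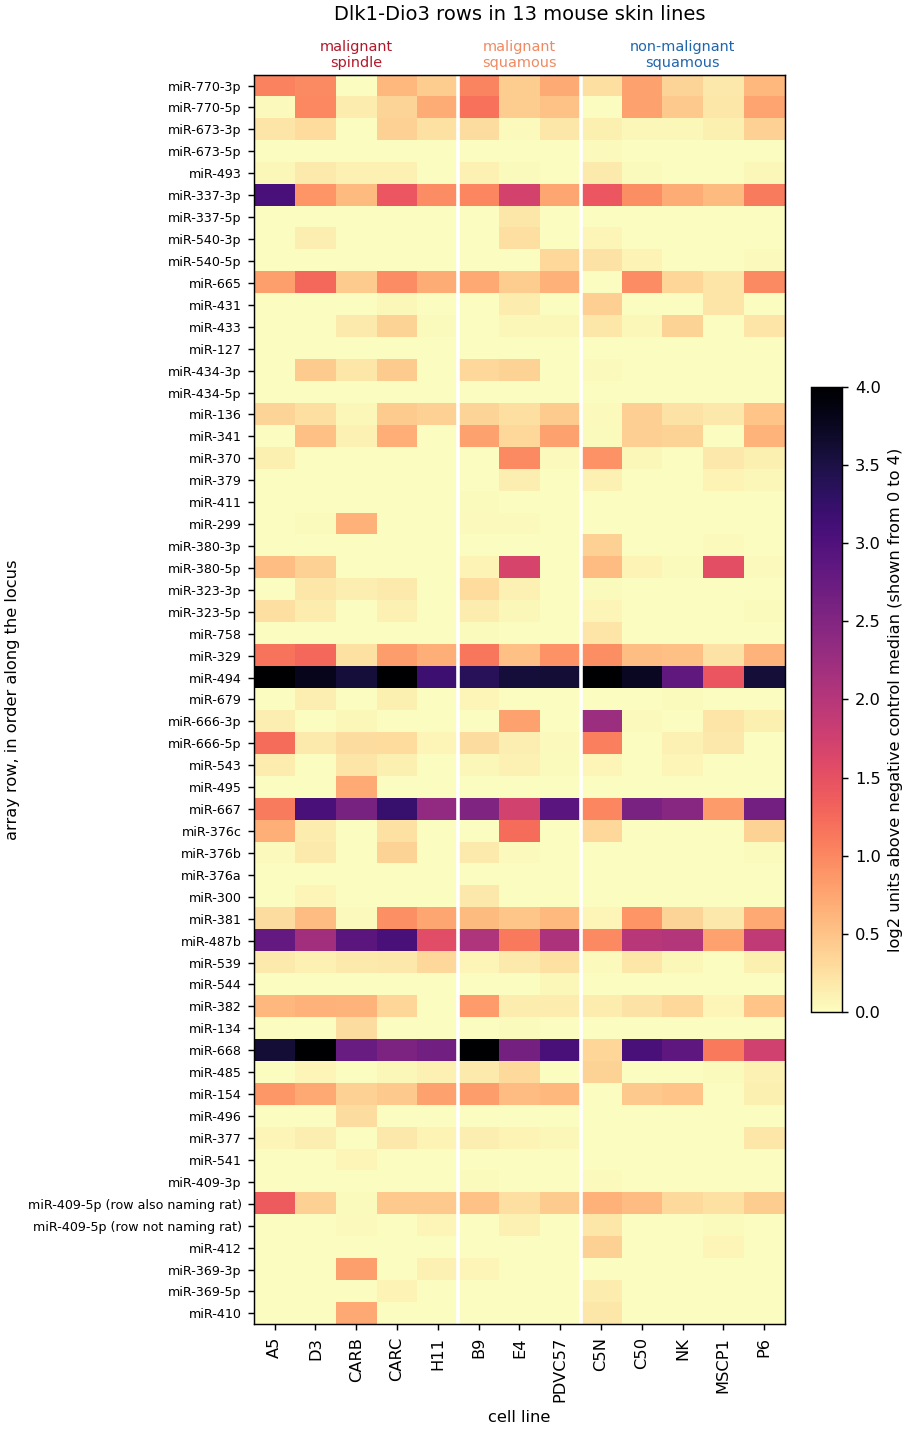
Level of each of the 57 rows, in log2 units above the negative control median of the same array (colour, 0 to 4), in the 13 lines (columns, malignant spindle, malignant squamous and non-malignant squamous from left to right) in order along the locus (top to bottom). A few rows, mmu-miR-494, mmu-miR-667, mmu-miR-487b and mmu-miR-668, are dark across most lines, and 43 rows are above background in none.

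The rows above background were scattered along the locus. The 2 rows of mmu-miR-770, within Meg3, were both above background in at least 1 line and neither in 3. Opposite Rtl1 lie 14 rows, of which 2 were above background in at least 1 line, mmu-miR-337-3p and mmu-miR-665, and 1 in at least 3. The end from mmu-miR-379 to mmu-miR-410 had 39 rows, of which 10 were above background in at least 1 line and 5 in at least 3. The 2 rows between them, mmu-miR-341 and mmu-miR-370, were above background in no line. Near neighbours differed. Mir494 ends 175 bases before Mir679, and mmu-miR-494 was above background in all 13 lines while mmu-miR-679 was so in none. Mir668 lies 523 bases after Mir134 and 105 bases before Mir485, and the rows of mmu-miR-134 and mmu-miR-485 were above background in no line. The row of the other arm of Mir485, mmu-miR-485*, which is no member, was above background in 4 lines. Mir337 lies 195 bases before Mir540, whose 2 rows were also at background.

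**Figure D2:**
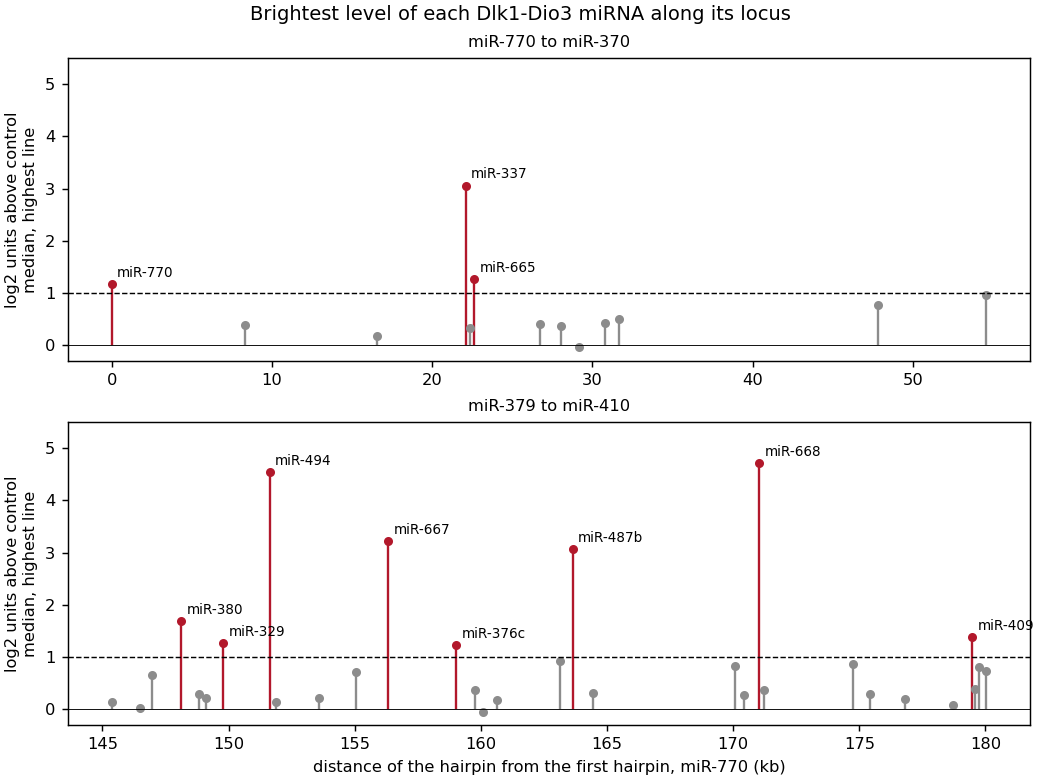
Highest level of any row of each member, in log2 units above the negative control median of the same array (vertical axis), against the distance of its hairpin from the first hairpin, miR-770 (horizontal axis, kb), for the 44 members with a matched hairpin. The dashed line is the margin of 1 log2 unit, and red points with names pass it; they stand among grey points rather than in a block.

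Of the member rows that lie opposite Rtl1, mmu-miR-337-3p was the only one above background in at least 3 lines. Its log2 levels were 9.73 in A5, 7.47 in D3, 7.23 in CARB, 7.99 in CARC and 7.61 in H11 among spindle lines. They were 7.58 in B9, 8.21 in E4 and 7.37 in PDVC57 among malignant squamous lines, and 8.07 in C5N, 7.57 in C50, 7.35 in NK, 7.20 in MSCP1 and 7.69 in P6 among non-malignant squamous lines. A5 stood clear of the rest, and the groups overlapped. Its other arm, mmu-miR-337-5p, was above background in no line.

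The rows with the highest signal, mmu-miR-668 and mmu-miR-494, belonged to the end from mmu-miR-379 to mmu-miR-410, which holds 39 of the 57 rows. Signals of different probes have no common scale, so this order is no ranking of amounts. Levels of mmu-miR-494 were 11.2 in A5, 10.4 in D3, 10.2 in CARB, 10.9 in CARC and 9.82 in H11 among spindle lines. They were 9.93 in B9, 10.1 in E4 and 10.2 in PDVC57 among malignant squamous lines, and 10.7 in C5N, 10.4 in C50, 9.49 in NK, 8.08 in MSCP1 and 10.2 in P6 among non-malignant squamous lines. It was the only member above background in every line, lowest in MSCP1, and the groups overlapped.

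Levels of mmu-miR-668 were 10.3 in A5, 11.3 in D3, 9.42 in CARB, 9.11 in CARC and 9.31 in H11 among spindle lines. They were 11.1 in B9, 9.14 in E4 and 9.68 in PDVC57 among malignant squamous lines, and 6.97 in C5N, 9.70 in C50, 9.53 in NK, 7.75 in MSCP1 and 8.32 in P6 among non-malignant squamous lines. The 3 highest lines, D3, B9 and A5, came from 1 tumour, and C5N alone was at background.

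Levels of mmu-miR-667 were 7.78 in A5, 9.67 in D3, 9.27 in CARB, 9.78 in CARC and 8.99 in H11 among spindle lines. They were 9.09 in B9, 8.22 in E4 and 9.52 in PDVC57 among malignant squamous lines, and 7.64 in C5N, 9.21 in C50, 9.10 in NK, 7.46 in MSCP1 and 9.22 in P6 among non-malignant squamous lines. The 3 lines with arrays unlike the others, A5, C5N and MSCP1, were its 3 lowest.

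Levels of mmu-miR-487b were 9.47 in A5, 8.79 in D3, 9.54 in CARB, 9.62 in CARC and 8.19 in H11 among spindle lines. They were 8.65 in B9, 7.62 in E4 and 8.71 in PDVC57 among malignant squamous lines, and 7.60 in C5N, 8.60 in C50, 8.69 in NK, 7.40 in MSCP1 and 8.48 in P6 among non-malignant squamous lines. CARC, CARB, A5 and D3 were the 4 highest, all spindle lines, while H11 lay within the range of both squamous groups.

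Of the 6 rows, mmu-miR-329 was above background in the fewest lines. These were A5 at 7.84, D3 at 7.85 and B9 at 7.71, again the lines of 1 tumour. In the other lines it lay between 6.86 and 7.58.

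With 1 array per line, only A5 shows the spread between arrays. Its 2 arrays differed by a median of 0.176 log2 units over these 6 rows, and at most by 0.319, for mmu-miR-337-3p. Neighbours in the order of lines were often closer than that: for mmu-miR-494, CARB and PDVC57 both stood at 10.2.

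**Figure D3:**
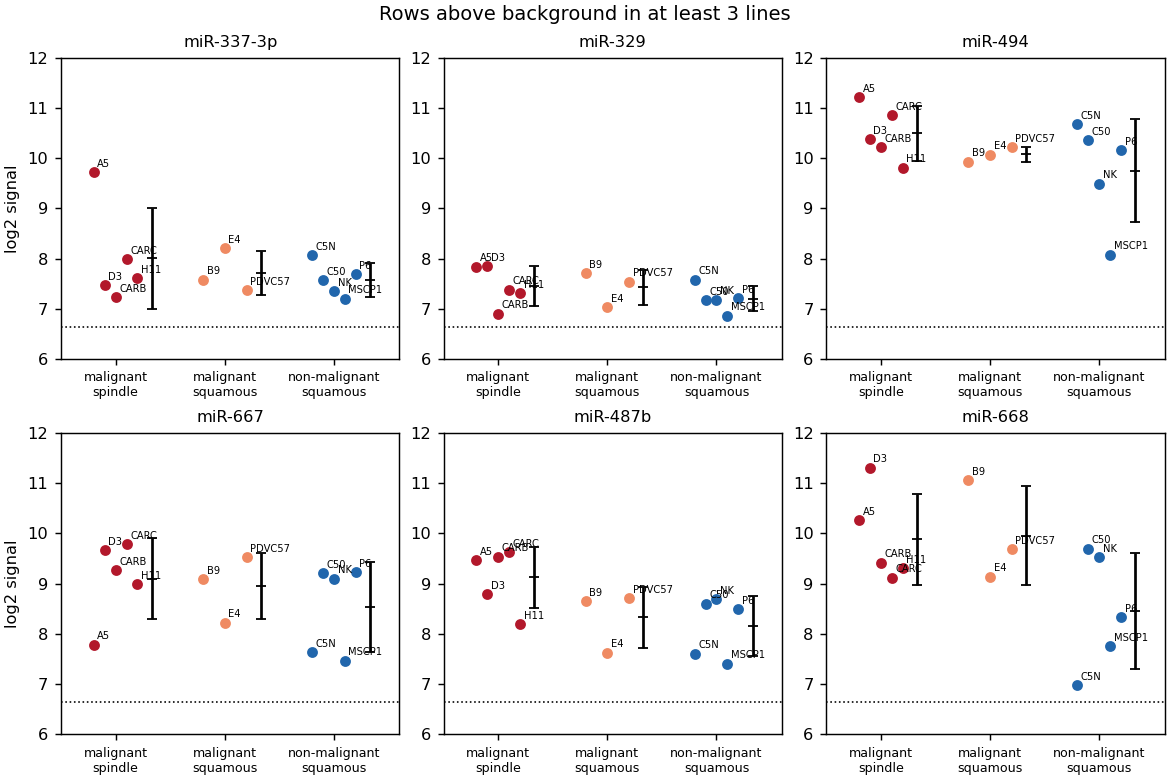
Log2 signal (vertical axis) of the 6 rows above background in at least 3 lines, by group: malignant spindle (left), malignant squamous (middle) and non-malignant squamous lines (right). Each point is 1 line, the black bars are the mean and SD over lines, and the dotted line is the median of the 13 negative control medians; the 3 groups overlap in every panel.

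Another 8 rows passed the margin in 1 or 2 lines. Of these, mmu-miR-770-3p did so in A5 at 7.71 and B9 at 7.59, and mmu-miR-770-5p in B9 at 7.75. The only line above background for mmu-miR-665 was D3, at 7.85, and for mmu-miR-376c it was E4, at 7.73. The row of mmu-miR-409-5p that also names the rat miRNA reached 8.05 in A5, whereas the row that does not name it was above background in no line. The remaining rows were above background in E4 at 8.19 and MSCP1 at 8.16 for mmu-miR-380-5p, in A5 at 7.89 and C5N at 7.70 for mmu-miR-666-5p, and in C5N at 8.87 for mmu-miR-666-3p.

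Rows just inside the margin were mmu-miR-770-3p, 1.04 log2 units above the control median in A5, mmu-miR-770-5p, 1.17 above it in B9, and mmu-miR-666-5p, 1.22 above it in A5. Just outside it were mmu-miR-370, 0.969 above in E4, mmu-miR-381, 0.923 above in CARC, and mmu-miR-154, 0.861 above in A5.

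The best known members were among the 34 that were above background in no line. The level of mmu-miR-127 lay between 6.29 and 6.56 over the 13 lines, that of mmu-miR-379 between 6.40 and 6.74, and that of mmu-miR-411 between 6.41 and 6.61. In every line mmu-miR-127, mmu-miR-376a and mmu-miR-434-5p were below the control median. The other members at background near Rtl1 were mmu-miR-673, mmu-miR-493, mmu-miR-540, mmu-miR-431, mmu-miR-433, mmu-miR-434 and mmu-miR-136. Those of the other end were mmu-miR-299, mmu-miR-323, mmu-miR-758, mmu-miR-679, mmu-miR-543, mmu-miR-495, mmu-miR-376b, mmu-miR-300, mmu-miR-381, mmu-miR-539, mmu-miR-544, mmu-miR-382, mmu-miR-134, mmu-miR-485, mmu-miR-154, mmu-miR-496, mmu-miR-377, mmu-miR-541, mmu-miR-412, mmu-miR-369 and mmu-miR-410. A row at background shows only that its miRNA was not measurable there, so differences between such rows and lines are bounded by the control level.

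The mature sequences of the rows above background in at least 3 lines had a median GC content of 45.5% (n = 5), those above background in 1 or 2 lines of 68.2% (n = 7), and those above background in no line of 50% (n = 41).

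The number of member rows above background was 9 in A5, 6 in D3, 4 in CARB, 5 in CARC and 4 in H11 among spindle lines. It was 8 in B9, 7 in E4 and 4 in PDVC57 among malignant squamous lines, and 5 in C5N, 4 in C50, 4 in NK, 3 in MSCP1 and 5 in P6 among non-malignant squamous lines. The means were 5.6 ± 2.07 in spindle (SD, n = 5), 6.33 ± 2.08 in malignant squamous (SD, n = 3) and 4.2 ± 0.837 in non-malignant squamous lines (SD, n = 5), and the groups overlapped. The share of all mouse rows above background also differed between lines: it was 20.7% to 32.1% in spindle lines, 25.5% in E4, 25% in PDVC57 and 31.9% in B9, and 6.42% in MSCP1 and 22.4% to 26% in the other non-malignant squamous lines. Nothing particular to the members is read from these counts.

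The comparisons of phenotypes asked whether the cluster's levels differ between spindle cancers, which have lost epithelial form, squamous cancers and non-malignant keratinocytes. No member passed limma's test at an adjusted p of 0.05 in any of the 4 comparisons, nor did any of the 576 mouse rows (0%). Differences are given on the log2 scale, and no member's groups were free of overlap.

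Between spindle and non-malignant squamous lines, 3 member rows were higher and 1 was lower at an unadjusted p under 0.05, of 57, against 5.56% and 2.95% of all mouse rows. The groups did not overlap for 0 of 57 member rows and for 1.04% of mouse rows. Spindle lines averaged 9.88 ± 0.91 for mmu-miR-668 and non-malignant squamous lines 8.45 ± 1.16 (SD, n = 5 each). The difference of 1.43 had an SE of 0.659, a limma p of 0.0477 and an adjusted p of 0.568. All 5 spindle lines were above the non-malignant mean, and without C5N, MSCP1 and A5 the difference was 0.604. For mmu-miR-487b the means were 9.12 ± 0.62 in spindle and 8.16 ± 0.60 in non-malignant squamous lines, a difference of 0.967 (SE 0.431, limma adjusted p = 0.564), which was 0.446 without those 3 lines. The third was mmu-miR-154, with 7.26 ± 0.23 in spindle and 6.79 ± 0.31 in non-malignant squamous lines (limma adjusted p = 0.477), but it was above background in no line. The row with the lower value, mmu-miR-412, was also at background (6.38 ± 0.06 in spindle and 6.62 ± 0.25 in non-malignant squamous lines), as were mmu-miR-431 and mmu-miR-380-3p, next in that direction. Differences of the other 4 rows above background in at least 3 lines were 0.744 for mmu-miR-494, 0.571 for mmu-miR-667, 0.43 for mmu-miR-337-3p and 0.255 for mmu-miR-329, with limma adjusted p-values from 0.767 to 0.790. Without A5 the difference of mmu-miR-337-3p was -6.96e-05. Without MSCP1 that of mmu-miR-494 was 0.325 and that of mmu-miR-667 0.306. The difference of mmu-miR-667 was 0.349 without C5N and 0.901 without A5. That of mmu-miR-329 was 0.160 without A5, 0.156 without D3, 0.394 without CARB and 0.171 without MSCP1.

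The median difference of the 57 rows was 0.0415, beside 0.0272 over all mouse rows, with higher values in spindle lines for 37 rows and lower ones for 20. The mean of the epithelial list moved with this comparison, as given above, and so did that of the fibroblast list. The fibroblast list (5 rows, miR-143, miR-145, the miR-199 group and miR-214) averaged 7.22 to 8.84 in spindle lines. It averaged 6.88 to 7.02 in malignant squamous lines and 6.83 to 7.02 in the non-malignant lines. Its rows differed: A5 stood at 9.37 for miR-214 but at 6.69 for miR-143, 6.57 for miR-145 and 6.49 for miR-199a-3p. The row of miR-214 was above background in 12 lines and stood at 9.27 in the squamous line E4. Those of miR-143 and miR-145 were above background in 3 lines each, D3, CARB and CARC. The mean of the mouse rows above background in at least 3 lines ran from 8.17 to 8.95 in spindle lines and from 7.37 in MSCP1 and 7.75 in C5N to 8.69 in C50 among non-malignant squamous lines. Their part in the result was not tested.

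Between spindle and malignant squamous lines, no member row reached an unadjusted p under 0.05 in either direction, against 1.39% of mouse rows higher and 1.56% lower. The groups did not overlap for 0 of 57 member rows and 3.82% of mouse rows. The smallest p among higher rows belonged to mmu-miR-487b, at 9.12 ± 0.62 in spindle (SD, n = 5) and 8.33 ± 0.61 in malignant squamous lines (SD, n = 3), a difference of 0.796 with an SE of 0.498 (limma adjusted p = 0.990), which was 0.445 without E4. The next were mmu-miR-495 and mmu-miR-673-5p, and the lower ones were mmu-miR-300, mmu-miR-341 and mmu-miR-544, all rows at background. The median difference was 0.0408 over the members and -0.00807 over all mouse rows.

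Spindle and squamous lines of the same tumour could be set side by side. For mmu-miR-487b, A5 exceeded B9 by 0.821, D3 exceeded B9 by 0.142 and H11 exceeded E4 by 0.570. For mmu-miR-667 the same differences were -1.31, 0.578 and 0.764, and for mmu-miR-668 they were -0.79, 0.254 and 0.169. For mmu-miR-494 they were 1.28, 0.450 and -0.256. For mmu-miR-337-3p they were 2.15, -0.11 and -0.595, and for mmu-miR-329 they were 0.129, 0.141 and 0.279. Of the 6 rows, mmu-miR-487b and mmu-miR-329 were higher in the spindle line of all 3 pairs. The pairs come from 2 tumours, and 2 of the 3 share B9. The 2 A5 arrays differed by a median of 0.176 over these 6 rows. The differences of 0.129 and 0.141 for mmu-miR-329 and of 0.142 for mmu-miR-487b were under that. In H11 and E4 mmu-miR-329 was at background.

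Between malignant squamous and non-malignant squamous lines, 1 member row was higher and 1 lower at an unadjusted p under 0.05, against 2.6% and 1.91% of mouse rows. The groups did not overlap for 0 of 57 member rows and 4.86% of mouse rows. These rows were mmu-miR-300, at 6.61 ± 0.12 in malignant squamous (SD, n = 3) and 6.42 ± 0.08 in non-malignant squamous lines (SD, n = 5), and mmu-miR-412, at 6.34 ± 0.07 in the malignant lines and 6.62 ± 0.25 in the non-malignant ones, both at background. The difference of mmu-miR-668 was 1.50, with an SE of 0.761 (limma adjusted p = 0.844). It rested on means of 9.96 ± 0.99 in the malignant lines and 8.45 ± 1.16 in the non-malignant ones, and was 0.955 without B9. The remaining rows that the choice by smallest p named, mmu-miR-154, mmu-miR-369-5p and mmu-miR-380-3p, were at background. The median difference was 0.0196 over the members and 0.0297 over all mouse rows. It had the other sign after quantile normalization (-0.00711) and without B9 (-0.00736), PDVC57 (-0.00793) or MSCP1 (-0.00566).

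Set against the mean of the 2 squamous groups, each given equal weight, spindle lines had 1 member row higher at an unadjusted p under 0.05 and 0 lower, against 3.3% and 1.56% of mouse rows. The groups did not overlap for 0 of 57 member rows and 0.521% of mouse rows. The row was mmu-miR-487b, with a difference of 0.882 (SE 0.393, limma adjusted p = 0.896). Others with the smallest p were mmu-miR-369-3p and mmu-miR-495, higher, and mmu-miR-370, mmu-miR-380-5p and mmu-miR-412, lower. The median difference was 0.0527 over the members and 0.00492 over all mouse rows. These comparisons share lines and are not independent of each other.

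In the spindle line CARB, 4 rows were highest by more than 0.4 log2 units over the next line. They were picked after their values were seen. Levels in CARB were 7.32 for mmu-miR-299, 7.38 for mmu-miR-495, 7.47 for mmu-miR-369-3p and 7.39 for mmu-miR-410. Over the other 12 lines mmu-miR-299 lay between 6.39 and 6.61, mmu-miR-495 between 6.34 and 6.58, mmu-miR-369-3p between 6.44 and 6.75, and mmu-miR-410 between 6.24 and 6.83. CARC, from the same mouse stock and treatment, stood at 6.28 to 6.56 for the 4 rows. In CARB they were 0.656 to 0.811 above the control median, so all 4 lay under the margin of 1 log2 unit.

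Of the member rows, 4 (7.02%) were highest in CARB by that gap, against 18 (3.13%) of all mouse rows. Their hairpins lie in the end from mmu-miR-379 to mmu-miR-410, 146.946, 155.062, 179.726 and 180.023 kb from Mir770. Their sequences, printed above, had a median GC content of 37.2%, from 23.8% to 50%. The fibroblast list averaged 8.84 in CARB, 8.83 in CARC and 6.83 to 7.54 in the other lines. CARB was highest for its miR-199 rows, CARC for miR-143 and miR-145, and A5 for miR-214. The neural list, with 1 of 5 rows above background in any line, averaged 7.02 in CARB and 6.58 to 7.07 in the other lines. CARB was highest for miR-9, at 8.18, and other lines were highest for the remaining 4 rows. Their part in the result was not tested.

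**Figure D4:**
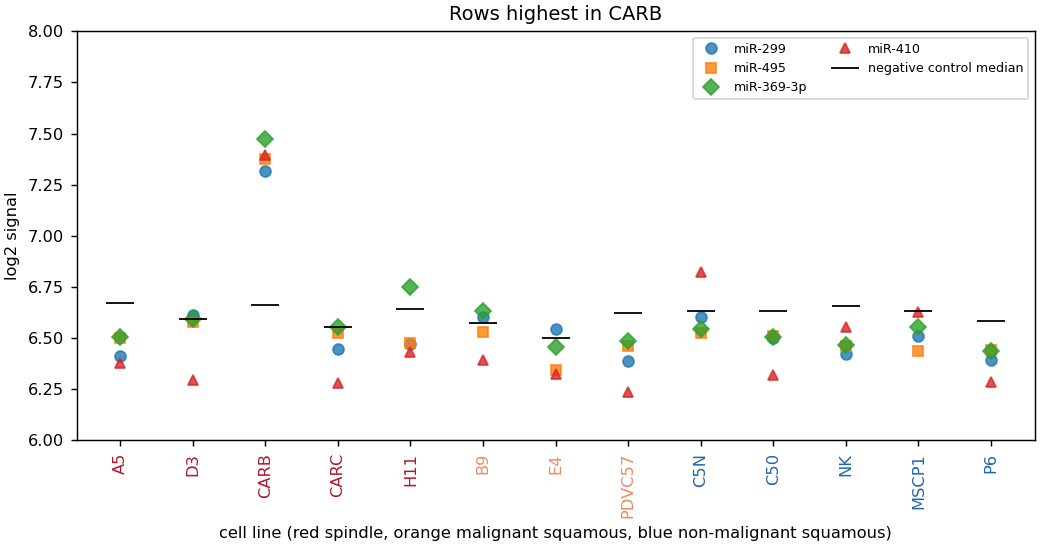
Log2 signal (vertical axis) of mmu-miR-299, mmu-miR-495, mmu-miR-369-3p and mmu-miR-410 in each of the 13 lines (horizontal axis, malignant spindle, malignant squamous and non-malignant squamous from left to right), with the negative control median of each array as a black dash. The 4 rows stand at 7.32 to 7.47 in CARB and near the dash in the other lines.

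Pairs of the 6 rows above background in at least 3 lines varied together only in part across the lines. Over their 15 pairs the median Pearson r was 0.467 (13 lines), from -0.437 for mmu-miR-337-3p with mmu-miR-667 to 0.616 for mmu-miR-337-3p with mmu-miR-494. The median over pairs of the 188 mouse rows that pass the same filter was 0.337. The points share arrays whose overall signal differs: across the 13 lines the r of a row with the mean of those mouse rows was 0.814 for mmu-miR-668, 0.691 for mmu-miR-667, 0.511 for mmu-miR-329, 0.446 for mmu-miR-487b, 0.411 for mmu-miR-494 and 0.0311 for mmu-miR-337-3p. With that mean removed, the median r was 0.162 for the members and -0.00997 for the mouse rows. Without C5N, MSCP1 and A5 it was 0.154 for the members and 0.260 for the mouse rows (10 lines).

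Likeness differed from pair to pair. The row most like mmu-miR-487b was mmu-miR-667 (r = 0.591, and 0.795 without C5N, MSCP1 and A5). The row most like mmu-miR-329 was mmu-miR-494 (r = 0.595, and 0.154 without those 3 lines). Without those 3 lines the row most like mmu-miR-329 was mmu-miR-668 (r = 0.755, and 0.506 over 13 lines). The pair with the highest r over 13 lines, mmu-miR-337-3p and mmu-miR-494, come from opposite ends of the locus. Without those 3 lines its r was 0.321, and the highest was that of mmu-miR-667 and mmu-miR-487b, from the same end. Of the 6 rows, mmu-miR-337-3p was above background in 6 lines and mmu-miR-329 in 3. Pairs with either of them, the highest and lowest r over 13 lines among these, rest largely on values at background. Correlations are a description over lines, with no test.

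Star forms, the other arm of the same hairpins, were no members but share their precursors. Of 13 star rows, 6 were above background in at least 1 line and 4 in at least 3. The shares over all mouse rows were 56.1% and 32.6%, so nothing particular to the star rows is read from these counts. The rows of mmu-miR-299* and mmu-miR-411* passed only in C5N, at 8.54 and 8.78, a line whose array was unlike the others. The row of mmu-miR-433* was above background in 12 lines, at 10.7 in A5, 8.97 in D3, 8.84 in CARB, 8.99 in CARC and 8.78 in H11 among spindle lines. It stood at 8.77 in B9, 7.62 in E4 and 8.45 in PDVC57 among malignant squamous lines, and at 9.64 in C5N, 8.83 in C50, 8.27 in NK, 7.49 in MSCP1 and 8.38 in P6 among non-malignant squamous lines. The row of mmu-miR-433 itself was above background in no line and reached at most 7.03.

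The same held for other hairpins. The row of mmu-miR-382* was above background in 10 lines, over a range of 7.16 to 10.0, and that of mmu-miR-300* in 9 lines, over 6.58 to 9.50. That of mmu-miR-485* was so in 4 lines and highest in C5N at 9.00. The member rows of those hairpins, mmu-miR-382, mmu-miR-300 and mmu-miR-485, were above background in no line. A5 was highest for mmu-miR-433*, mmu-miR-382* and mmu-miR-300*. Its array was among those unlike the others, and 13% of all mouse rows stood highest over the control median in A5. Signals of different probes have no common scale, so only their standing against background is compared. The sequences of the star arms, by the older naming and with seeds in capitals, are given to show which arm each row names.

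mmu-miR-433-5p (star arm), chr12:109591729-109591750, + strand: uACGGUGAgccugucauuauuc
mmu-miR-382-3p (star arm), chr12:109733819-109733840, + strand: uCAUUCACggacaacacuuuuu
mmu-miR-300-5p (star arm), chr12:109724318-109724339, + strand: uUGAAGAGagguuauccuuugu

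**Figure D5:**
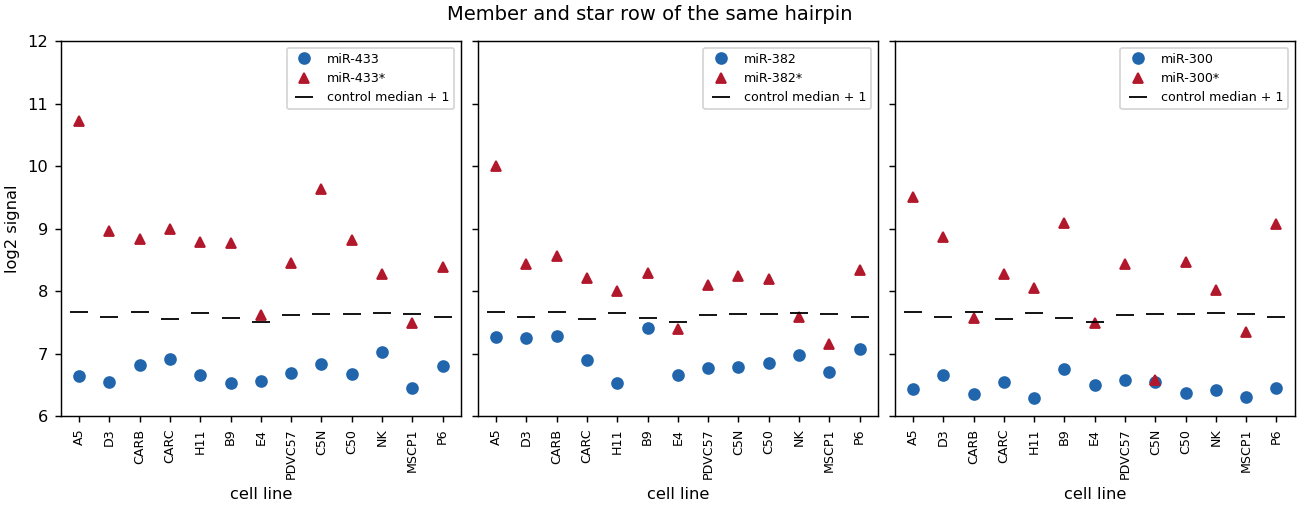
Log2 signal (vertical axis) of the member row (circles) and the star row (triangles) of the miR-433, miR-382 and miR-300 hairpins in each of the 13 lines (horizontal axis), with the background margin, the control median plus 1, as black dashes. Circles stay under the dashes in every line, while triangles pass them in 12, 10 and 9 lines.

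miRNAs of other imprinted loci gave a comparison outside the cluster. Of 8 rows, from the Gnas, Mest, Igf2 and H19 loci, 6 were above background in at least 1 line and 2 in at least 3. The shares over all mouse rows were 56.1% and 32.6%, and nothing particular to these loci is read from so few rows. Those above background in at least 3 lines were miR-483, from Igf2, and miR-675-5p, from H19. The row of miR-483 was so in 11 lines, over a range of 6.47 to 9.59. That of miR-675-5p was so in 4 lines and highest in D3, at 8.27. As with mmu-miR-668, C5N and MSCP1 were the lowest lines for miR-483. They were also lowest for the mean of all mouse rows above background in at least 3 lines. That mean was 7.75 in C5N and 7.37 in MSCP1, against 8.17 to 9.03 in the other lines. Its part in this likeness was not tested.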

How the data were processed

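The deposited table holds log2 values per probe row, as the authors gave them to GEO; values lay between 5.93 and 15.2, with 0 missing, from which the log2 scale was taken. How the arrays were scanned, corrected for background and normalized is not given in the sources used here; their centring and offset are unknown. Cells were grown in medium with serum and RNA was isolated with a Qiagen kit, per the labels' protocols. The columns were used as deposited (column medians 6.71 to 6.86); read depth does not apply, and the number of arrays limits the precision.

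The 2 A5 arrays were averaged, and the 13 lines were fitted by lmFit and eBayes with a trend on intensity (limma 3.58.1, R 4.3.3) over all 576 mouse rows, with Benjamini-Hochberg adjustment and a threshold of 0.05; summaries used pandas 2.3.3 in Python 3.11.15. The fit was tested on simulated data. Each line counted as 1 sample; p-values measure the spread between lines, some of which share a tumour. Named rows were those above background in at least 3 lines, those above it in 1 or 2, those nearest the margin, and the 3 with the smallest p in each direction of a comparison. Members and lists were chosen with earlier results of these data known. Alternatives were another normalization, filter, moderation, row set, margin, A5 array or covariate, the tumour as a random block, and leaving out lines. The labels disagree on whether NK and P6 descend from a cross with Mus spretus; the organism label was the covariate.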

Additional observations from a re-analysis of the deposited data

Results flagged for a closer look

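Values that stood far from the other lines of their group, by Dixon's criterion on the gap over the range, were found for 8 values of the rows named in the text. Rows were partly named because 1 line stood apart (mmu-miR-299 and mmu-miR-410 for CARB alone), or passed the margin through that line (mmu-miR-666), so these flags restate the choice. Over all 57 member rows, in 114 groups of 5 lines, there were 15 flags, 8 of them in CARB, 5 in C5N, 1 in A5 and 1 in P6; chance flags about 1 in 20 groups, and rows and lines are not independent. Of the named values, 4 were in CARB among the 5 spindle lines: mmu-miR-299 at 7.32 (next line 6.61), mmu-miR-369-3p at 7.47 (next 6.75), mmu-miR-410 at 7.39 (next 6.43) and mmu-miR-495 at 7.38 (next 6.58). Another 3 were in C5N among the 5 non-malignant squamous lines: mmu-miR-370 at 7.55 (next 6.80), mmu-miR-666-3p at 8.87 (next 6.85) and mmu-miR-666-5p at 7.70 (next 6.81). The last was mmu-miR-666-5p in A5 among the spindle lines, at 7.89 (next 6.93). C5N and A5 were also the lines whose arrays correlated least with the others.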

How the results depend on the processing

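No member passed an adjusted p of 0.05 in any of the 4 comparisons under any alternative run; the smallest adjusted p was 0.366, for mmu-miR-434-3p between spindle and non-malignant squamous lines without H11. Another filter, moderation or row set cannot move the difference of a row, nor can leaving out a line outside the comparison. Part of the recomputed differences was thus fixed in advance, and a count of sign changes over all of them is no measure of stability. Of 597 recomputed values of 28 named differences under 22 settings, 1 changed sign: mmu-miR-337-3p between spindle and non-malignant squamous lines was -6.96e-05 without A5. That difference ranged from 0.604 to 1.74 for mmu-miR-668, from 0.446 to 1.20 for mmu-miR-487b, from 0.250 to 0.901 for mmu-miR-667, from 0.316 to 0.977 for mmu-miR-494 and from 0.0936 to 0.394 for mmu-miR-329. The median member difference between malignant squamous and non-malignant squamous lines, 0.0196, also changed sign, to -0.00711 after quantile normalization and to as low as -0.00793 with 1 line left out. With only rows above background in at least 3 lines kept, 6 member rows were left. Their median difference was 0.658 between spindle and non-malignant squamous and 0.219 between spindle and malignant squamous lines. It was 0.273 between malignant squamous and non-malignant squamous and 0.473 between spindle and all squamous lines. The median over mouse rows under this filter was not taken. The mean of those mouse rows was 8.17 to 8.95 in spindle lines, 7.37 in MSCP1 and 7.75 in C5N. Its part in these medians was not tested. The 6 rows were picked by level, and mmu-miR-329 passed only through A5, D3 and B9, lines of 1 tumour.

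The count of rows above background depended on the margin. In at least 1 line it was 23 at a margin of 0.5, 6 at a margin of 2, 47 above the second brightest control row and 5 above every control row, against 14. In at least 3 lines it was 15 at 0.5, 26 above the second brightest control row and 3 above every control row, against 6. The median r of detected members, 0.467, was 0.346 by Spearman's rho, 0.162 with the array mean removed, 0.0427 after quantile normalization, 0.238 with rows above background in at least 1 line, 0.0869 over all member rows and 0.154 without C5N, MSCP1 and A5. Leaving out 1 line at a time it ran from 0.366 without D3 to 0.540 without CARB, and it was 0.375 without MSCP1. The number of rows highest in CARB, an alternative set added after the data were seen, was 4, and 6 or 3 with a gap of 0.2 or 0.6. Replicate numbers were given in accession order and pair no lines. Shared tumours do tie lines together, and with the tumour as a random block (correlation within tumour 0.214) no member passed the threshold. The causes of these shifts were not tested. By the margin of 1 most members lie at background, where differences are bounded by the signal over the controls.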
